A study of Mus musculus with 12 samples.

Results

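Mitochondrial rows 5, 6 and 13 of a mouse liver single-cell count table, 3 of its 18326 rows, are described here across 12 libraries. They belong to 13 consecutive rows, numbered here 1 to 13 in the table's order, whose summed counts equal the mitochondrial counts given for every cell in the deposited cell table, in all 31003 cells. In that order table row 13721's position is 5, row 13722's is 6 and row 13729's is 13. The table numbers its rows and pairs none with a gene name. The 3 rows were chosen by their position and abundance: if the 13 rows stand in the order of the protein-coding genes of the mouse mitochondrial genome, they are mt-Atp8 (row 5), mt-Atp6 (row 6) and mt-Cytb (row 13). These gene names are working names that the files do not establish, and the rows are called by these numbers.

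Mitochondrial ATP synthase turns the proton gradient across the inner membrane into ATP. The mitochondrial genome encodes its subunits ATP6, which forms part of the proton channel, and ATP8, a small subunit of the membrane stalk, and both are read from 1 shared messenger RNA on which their reading frames overlap. Cytochrome b, also encoded there, is the haem-carrying core of complex III, which passes electrons from ubiquinol to cytochrome c and pumps protons. In liver, the cells richest in mitochondria are hepatocytes, which use this ATP for gluconeogenesis, urea synthesis and lipoprotein export.

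The stretch shared by the 2 ATP synthase genes is shown because rows 5 and 6 are compared with each other throughout. In the GENCODE annotation of GRCm38 (the build also called mm10), mt-Atp8 (204 bases) and mt-Atp6 (681 bases) share 43 bases of coding exon, chrM:7927-7969 on the + strand, which are 21.1% of the first gene and 6.31% of the second. They are given in capitals with 20 bases on each side (chrM:7907-7989, 83 bases in all), read from the annotated transcripts:
mt-Atp8 and mt-Atp6: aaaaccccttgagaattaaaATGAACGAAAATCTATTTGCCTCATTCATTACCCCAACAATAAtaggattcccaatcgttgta
The capitals open with the start codon of mt-Atp6 and end with the stop codon of mt-Atp8. If the working names hold, a read inside these bases belongs to both genes. Which row counted it, if either did, is not given in the sources used here. The counts of rows 5 and 6, and the split between them, are uncertain to that extent.

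The study sampled livers of wild-type 129S6/SvEv mice, female and male, at ZT10 and ZT22 (zeitgeber time, in hours after lights on), and each of the 4 combinations of sex and time has 3 libraries. Every group shared the same strain and genotype. Cells were released by collagenase perfusion, spun to enrich hepatocytes, frozen and later thawed, and made into 10x Chromium v3 libraries, which count each captured RNA once through a molecular identifier (UMI). The age of the mice is not given in the sources used here. The labels number the libraries 1 to 3 without saying that each is another mouse, so the p-values measure the spread between libraries, which may be technical.

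Cells were summed per library over a main population of 26639 cells (85.9% of the 31003), those outside 3 clusters set apart by strongly different leading rows. Because the rows carry no names, hepatocyte and other cell type markers could not be looked up, and the population and its clusters stay unnamed. Main population totals ran from 1759027 UMIs (male ZT10 replicate 2, 363 cells) to 12602182 (male ZT10 replicate 1), and the median UMIs per cell from 2291 to 4048. By their names, 88 of the 494 deposited cells of male ZT10 replicate 2 belonged to a second library part. Only 8 of the 88 were in the main population, and the part was not tested on its own. Male ZT22 replicate 2 stood apart with a median intronic fraction of 0.511, against 0.216 to 0.310 in the other libraries. Of 30883 barcodes, 120 occurred in more than 1 library, at most 8 in any pair of libraries. The mitochondrial rows held 7.14% (female ZT10 replicate 1) to 18.8% (female ZT10 replicate 2) of all UMIs.

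The 3 rows together held 25.5% of the mitochondrial UMIs and 3.64% of all UMIs of the main population. Row 6 (working name mt-Atp6) had 2270967 UMIs and ranked 4th of the 18034 rows with any UMI. Row 13 (mt-Cytb) had 943963 UMIs and ranked 12th, while row 5 (mt-Atp8) had 76767 and ranked 109th. Within the 13 mitochondrial rows row 6 ranked 3rd, row 13 5th and row 5 12th, with row 7 just above row 6 and row 12, the lowest, just below row 5. These are UMI counts and not levels per length, so their order is that of UMIs assigned to each row in a tag assay. If the working names hold, rows 5 and 6 share a messenger RNA, and their counts are not amounts of separate RNAs. The median cell of a library held 22 to 108 UMIs of row 6, 7 to 43 of row 13 and 1 to 3 of row 5. At least 1 UMI of row 5 was seen in 57.0 to 87.1% of a library's cells, against 99.8 to 100% for row 6 and 96.3 to 100% for row 13.

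As a share of all UMIs, the 3 rows varied widely between libraries, and the ranges of the 6 ZT10 and the 6 ZT22 libraries overlapped for each row. Row 6 took 1.26, 3.53 and 2.42% of all UMIs in female ZT10 replicates 1, 2 and 3, and 2.17, 2.14 and 2.18% in male ZT10. At ZT22 it took 3.28, 3.49 and 2.25% in females and 2.71, 3.15 and 2.40% in males. The female ZT10 libraries held both the lowest and the highest of the 12 values, and the 3 male ZT10 libraries lay close together, below all ZT22 libraries. For row 13, the female ZT10 values were 0.439, 1.33 and 0.859% and the male ZT10 values 0.922, 0.783 and 0.920%. Its ZT22 values were 1.43, 1.46 and 0.896% in females and 1.24, 1.34 and 1.17% in males. All male ZT22 libraries were above all male ZT10 libraries for this row, while the female groups overlapped. Row 5 ranged from 0.0445% (female ZT10 replicate 1) to 0.132% (male ZT22 replicate 2) with a median of 0.0859%, and its highest library was the one with the high intronic fraction. In sums of this kind, fewer cells of a type and less RNA per cell cannot be told apart.

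**Figure D1:**
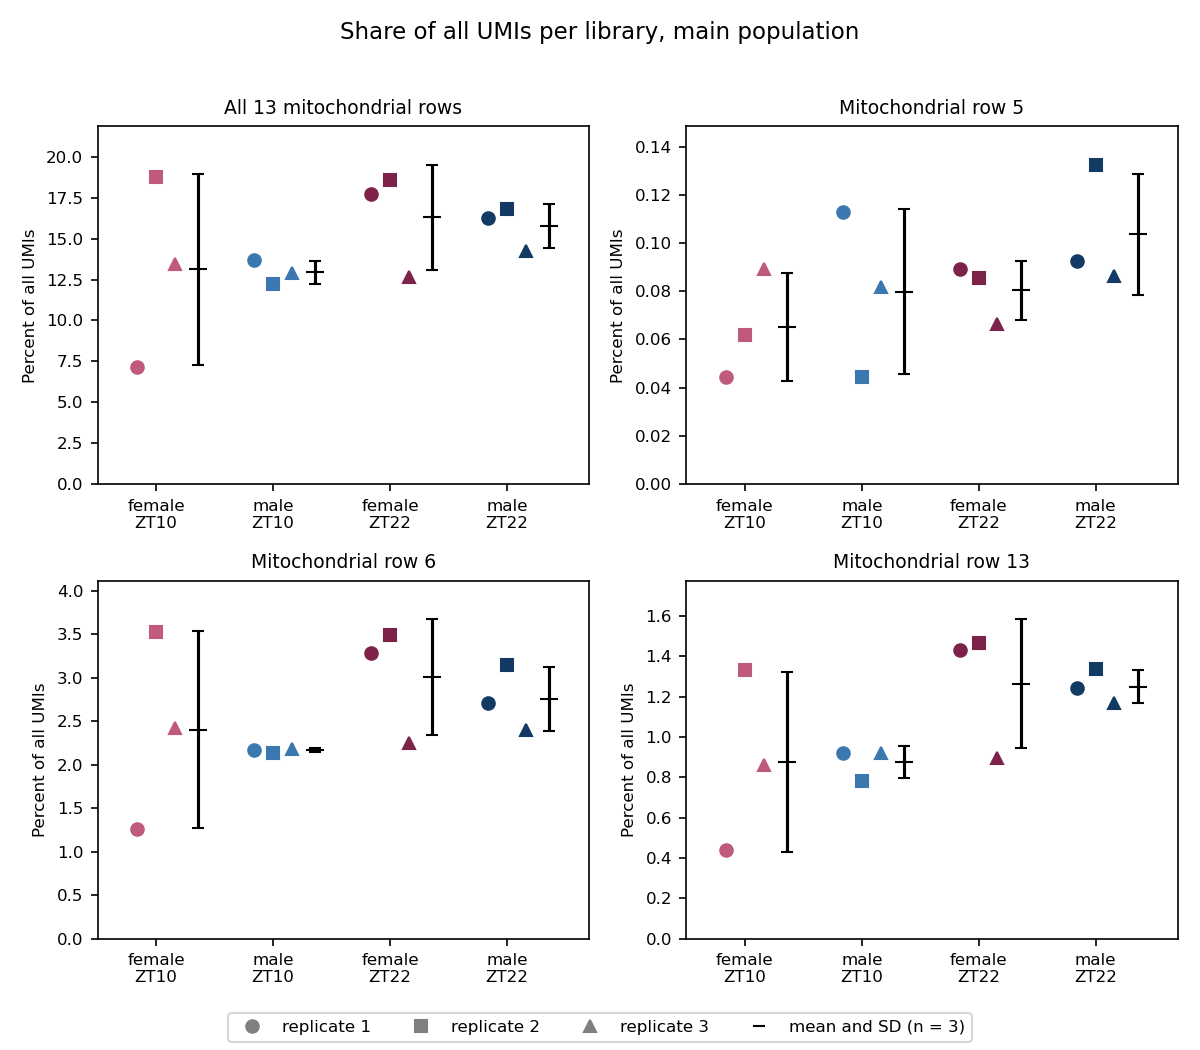
Share of all UMIs of the main population taken by all 13 mitochondrial rows and by each of the 3 rows (percent, vertical axes starting at 0), with 1 point per library by sex and time and bars for the mean and SD (n = 3). Row 6 spans 1.26 to 3.53% within the female ZT10 group, and row 5 is highest in male ZT22 replicate 2 at 0.132%.

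Neither sex nor time called any of the 3 rows when levels were tested with edgeR's quasi-likelihood fit over all 11601 rows that passed the filter on low counts. Between the sexes (female against male), 0 of 3 were called, 0 had an unadjusted p under 0.05 and DESeq2 called 0, against 6.24% of all tested rows. The log2 fold changes were -0.19 for row 5, 0.27 for row 6 and 0.14 for row 13. Leaving out single libraries moved them over -0.35 to -0.0446, 0.0645 to 0.43 and -0.0927 to 0.30. At ZT22 against ZT10 they were 0.44 (SE 0.25, edgeR adjusted p = 0.354), 0.44 (SE 0.30, adjusted p = 0.449) and 0.63 (SE 0.30, adjusted p = 0.236) in the same order. Again edgeR called 0 of 3, with 0 at an unadjusted p under 0.05, against 9.84% of all tested rows called. DESeq2 also called 0, though row 13 had an unadjusted DESeq2 p of 0.0137 (adjusted p = 0.109). Without single libraries the values by time ran from 0.29 to 0.59, 0.27 to 0.65 and 0.46 to 0.86. The other 10 mitochondrial rows had a median log2 fold change of 0.39 for time with 0 called, and the members' median was 0.44, beside -0.01 over all tested rows. The interaction of sex and time called 0 of 3 with edgeR, with 0 at an unadjusted p under 0.05 and 0 called by DESeq2, against 0% of all tested rows.

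The share of each row within the mitochondrial UMIs varied less between libraries for rows 6 and 13 than for row 5. Being shares of 1 sum, these values are not independent of each other. Over the 12 libraries the coefficient of variation was 5.34% for row 6, 9.97% for row 13 and 26.1% for row 5, the second highest of the 13 rows after row 9 (27.5%). The highest library exceeded the lowest 1.18-fold for row 6, 1.34-fold for row 13 and 2.50-fold for row 5.

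Row 13 took more of the mitochondrial UMIs at ZT22 than at ZT10 in both sexes. At ZT10 its share was 6.14, 7.08 and 6.39% in female replicates 1, 2 and 3 and 6.73, 6.39 and 7.14% in males. At ZT22 it was 8.08, 7.89 and 7.10% in females and 7.64, 7.94 and 8.23% in males. Within each sex every ZT22 library was above every ZT10 library, while over both sexes female ZT22 replicate 3 fell within the ZT10 range. The means were 7.81 ± 0.40% at ZT22 and 6.65 ± 0.41% at ZT10 (SD, n = 6 each), a difference of 1.17 percentage points (exact two-sided permutation p = 0.00433, adjusted p = 0.0346 over 8 tests). The difference was 1.15 percentage points in females and 1.18 in males, where 3 against 3 libraries cannot give an exact p below 0.1. It ranged from 1.06 to 1.31 when single libraries were left out. The exact permutation test's adjusted p became 0.0519 without any 1 of female ZT10 replicate 1, 2 or 3, male ZT10 replicate 1 or 2, or male ZT22 replicate 3. The cell names open with 1 of 6 numeric codes, and each code holds 1 time, so time and code cannot be told apart. Of the 13 mitochondrial rows, 2 (15.4%) had an unadjusted exact p under 0.05 by time: row 13, and row 1, which was lower at ZT22.

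The difference in row 13 was also present relative to row 6. The log2 ratio of row 13 to row 6, a measure added after the data were seen, was 0.20 higher at ZT22 (exact permutation p = 0.0195, not adjusted). For row 6 the share by time differed by 0.448 percentage points (exact permutation p = 0.433), and for row 5 by 0.00202 (p = 0.983 by the same exact test).

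Row 6 took a larger mean share of the mitochondrial UMIs in females than in males, a difference that missed the threshold after adjustment over all libraries. Females had 17.6, 18.8 and 18.1% at ZT10 (replicates 1, 2 and 3) and 18.5, 18.8 and 17.8% at ZT22. Males had 15.9, 17.5 and 16.9% at ZT10 and 16.7, 18.7 and 16.9% at ZT22. Every female library was above every male library except male ZT22 replicate 2, the library with the high intronic fraction, which lay among the highest females. The means were 18.3 ± 0.51% in females and 17.1 ± 0.94% in males (SD, n = 6 each), a difference of 1.17 percentage points (exact permutation p = 0.0238, adjusted p = 0.0952). Without male ZT22 replicate 2, the male library that went against the pattern, the difference was 1.49 percentage points (exact permutation p = 0.00216, adjusted p = 0.0173). Leaving out any other library did not change the call, and the difference ranged down to 0.930 (highest adjusted p = 0.208 by the same exact test). Over cells with an intronic fraction under 0.3 in all libraries it was 1.23 (adjusted p = 0.0433 by the same exact test). Over all deposited cells it was 1.09 and did not pass (adjusted p = 0.182, same exact test). Among the 4 cell-name codes with libraries of both sexes it was 2.32, 1.84, 1.01 and 1.11 percentage points, all higher in females (exact p = 0.125, the smallest that 4 codes allow). By sex, 2 of the 13 mitochondrial rows (15.4%) had an unadjusted exact p under 0.05: row 6, and row 8, which was lower in females.

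**Figure D2:**
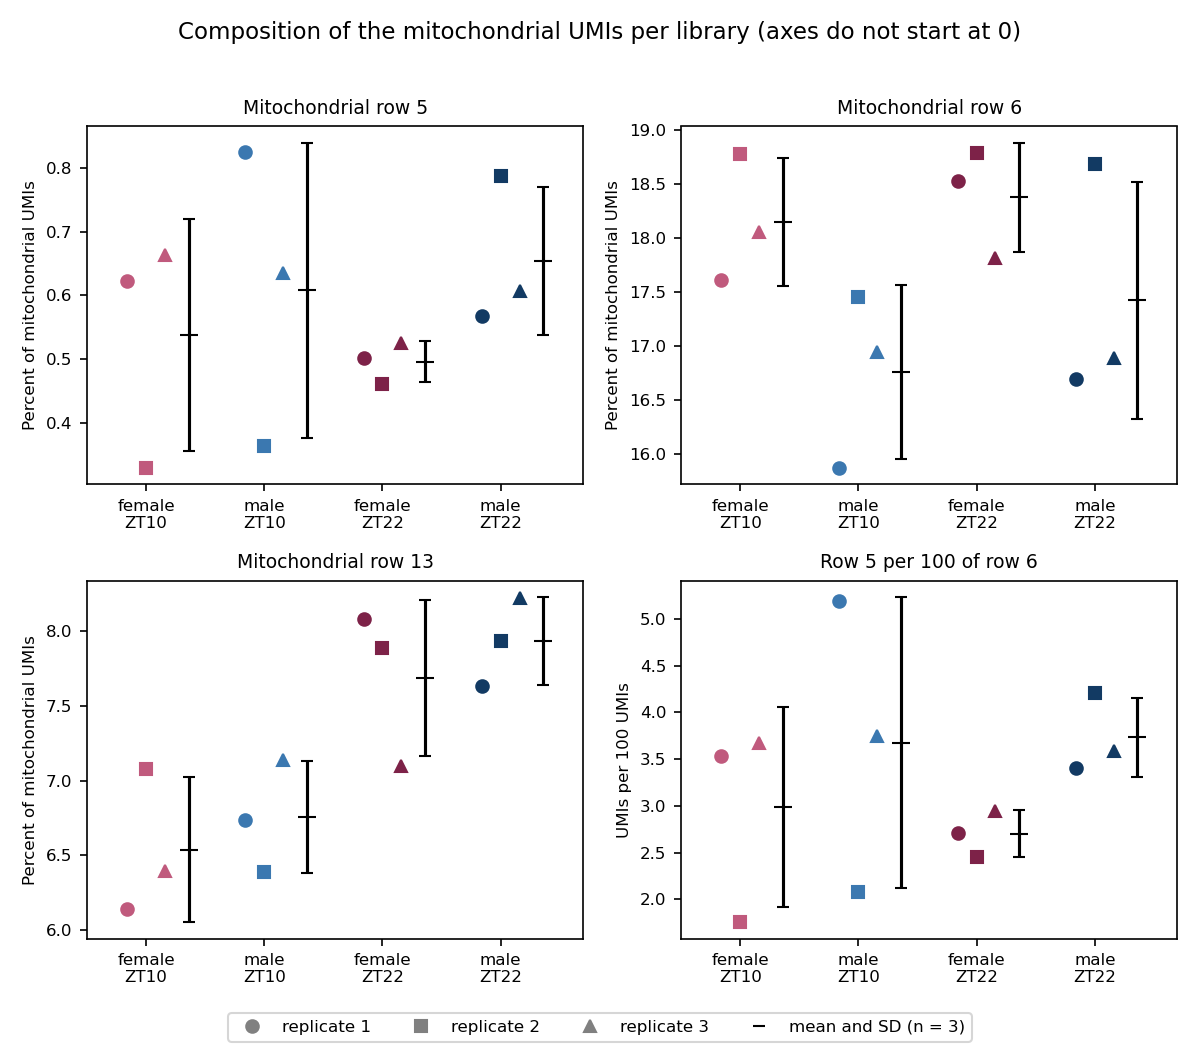
Share of the mitochondrial UMIs taken by each row, and UMIs of row 5 per 100 UMIs of row 6, with 1 point per library by sex and time and bars for the mean and SD (n = 3, axes not starting at 0). Row 13 is higher at ZT22 within each sex, while female ZT22 replicate 3 at 7.10% lies within the ZT10 range over both sexes. Row 6 is higher in females apart from male ZT22 replicate 2 at 18.7%.

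The count of row 5 relative to row 6 varied widely between the libraries of each ZT10 group and less within the ZT22 groups. Per 100 UMIs of row 6 there were 3.54 (exact 95% interval 3.43 to 3.64), 1.75 (1.70 to 1.81) and 3.67 (3.59 to 3.76) UMIs of row 5 in female ZT10 replicates 1, 2 and 3. In male ZT10 there were 5.20 (5.11 to 5.29), 2.08 (1.94 to 2.24) and 3.74 (3.65 to 3.83). The ZT22 values were 2.71, 2.45 and 2.95 in females and 3.40, 4.21 and 3.59 in males. The ZT10 groups each spread over more than the whole ZT22 range of their sex, and the intervals, which cover counting error only, are narrow beside that spread. At ZT22 all 3 male libraries were above all 3 female libraries. The log2 ratio differed by -0.37 between females and males (exact permutation p = 0.154, adjusted p = 0.398) and by 0.02 between ZT22 and ZT10 (exact permutation p = 0.935). The difference by sex ran from -0.24 without female ZT10 replicate 2 to -0.53 without male ZT10 replicate 2 (adjusted p = 0.0750 by the same exact permutation test), with no call in either case. In the 4 cell-name codes with both sexes it was -1.06, -0.33, -0.67 and -0.03, lower in females in each (exact p = 0.125, again the smallest that 4 codes allow). Row 5 as a share of the mitochondrial UMIs was 0.517 ± 0.119% in females and 0.631 ± 0.166% in males (SD, n = 6 each, exact permutation p = 0.199).

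Within a library, cells with a higher intronic fraction had more of row 5 relative to row 6. The intronic fraction is the share of a cell's reads or UMIs in introns as the deposited cell table gives it, and its denominator is not stated. Each library's cells were split into quartiles, whose median intronic fraction, averaged over the 12 libraries, rose from 0.171 to 0.401. In single libraries it was 0.125 to 0.295 in the lowest quartile and 0.320 to 0.618 in the highest. From the lowest to the highest quartile, row 5 per 100 UMIs of row 6 averaged 3.08, 3.20, 3.37 and 3.61 over the 12 libraries. The top quartile was above the bottom quartile in 11 of 12 libraries, with male ZT10 replicate 2 the exception. The log2 ratio was 0.22 higher (SD 0.17, exact sign-flip permutation p = 0.00195, adjusted p = 0.00391 over 8 tests), and single libraries ranged from -0.12 to 0.56. The share of row 5 in the mitochondrial UMIs was 0.634% in the top and 0.541% in the bottom quartile (higher in 11 of 12 libraries, exact sign-flip permutation p = 0.000977, adjusted p = 0.00391). Row 6 held 17.7% in both (p = 0.946 by the same exact test), but as a share of the mitochondrial UMIs outside row 3, a denominator added after the data were seen, it was 0.262 percentage points lower in the top quartile (exact sign-flip p = 0.0283, adjusted p = 0.0324). Row 13 held 7.18% in the top and 7.38% in the bottom quartile, higher in 2 of 12 libraries (exact sign-flip p = 0.0991, adjusted p = 0.132). Without male ZT10 replicate 2, the smallest library, its difference was -0.297 percentage points and passed (adjusted p = 0.00469 by the same exact test, higher in 1 of 11 libraries). Of the 13 mitochondrial rows, 7 (53.8%) had an unadjusted exact p under 0.05 in this contrast, so a difference of this kind was common among them.

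Levels of all 3 rows relative to all UMIs were lower in the cells with the higher intronic fraction. Row 6 held 2.84 ± 0.82% of all UMIs in the bottom and 1.82 ± 0.53% in the top quartile (SD, n = 12), lower in all 12 libraries. Row 13 fell from 1.19 to 0.740% in all 12, and row 5 from 0.0846 to 0.0639% in 11 of 12. The log2 fold changes were -0.87 (SE 0.10), -1.09 (SE 0.12) and -1.13 (SE 0.12) for rows 5, 6 and 13 (edgeR adjusted p = 3.5e-11, 4.0e-11 and 5.3e-12). All 3 were called lower, as were 9 of the other 10 mitochondrial rows, against 39.6% of the 8619 tested rows called lower and 38.9% called higher. The mitochondrial share of all UMIs was 15.9, 16.8, 15.3 and 10.2% over the 4 quartiles, and the intronic fraction and this share may have a common denominator, whose part in the level difference was not tested.

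Cells with more UMIs gave row 6 a larger share of the mitochondrial UMIs in every library. The quartiles by total UMIs had median totals that, averaged over the 12 libraries, rose from 1901 to 5530 UMIs per cell. Row 6 averaged 16.8, 17.0, 17.5 and 18.2% of the mitochondrial UMIs from the shallowest to the deepest. The difference between the outer quartiles was 1.41 percentage points, from 0.371 to 2.73 in single libraries and higher in 12 of 12 (exact sign-flip permutation p = 0.000488, the smallest that 12 libraries allow, adjusted p = 0.00391). Row 13 averaged 6.996, 7.06, 7.11 and 7.41%, a difference of 0.417 percentage points that was positive in 11 of 12 libraries, all but male ZT22 replicate 2 (exact sign-flip p = 0.00146, adjusted p = 0.00391). Row 5 did not pass the test (-0.0424 percentage points, exact sign-flip p = 0.139). By the same exact test it passed without male ZT10 replicate 1 (-0.0589, adjusted p = 0.0326) and over all deposited cells (-0.0672, adjusted p = 0.0462). It also passed as a share outside row 3, the denominator added after the data were seen (-0.0784, adjusted p = 0.0435, same exact test). The ratio of row 5 to row 6 ran the other way, at 3.61, 3.50, 3.29 and 3.12 per 100 UMIs. Its log2 difference was -0.22 and was positive in 2 of 12 libraries, male ZT10 replicates 1 and 2 (exact sign-flip p = 0.0122, adjusted p = 0.0195). These called shares and ratios, for depth and for the intronic fraction, kept their direction and call when quartiles of the other measure or of the mitochondrial percentage were held fixed, and those for depth also when depth was counted without mitochondrial UMIs. Of the 13 mitochondrial rows, 8 (61.5%) had an unadjusted exact p under 0.05 by depth.

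**Figure D3:**
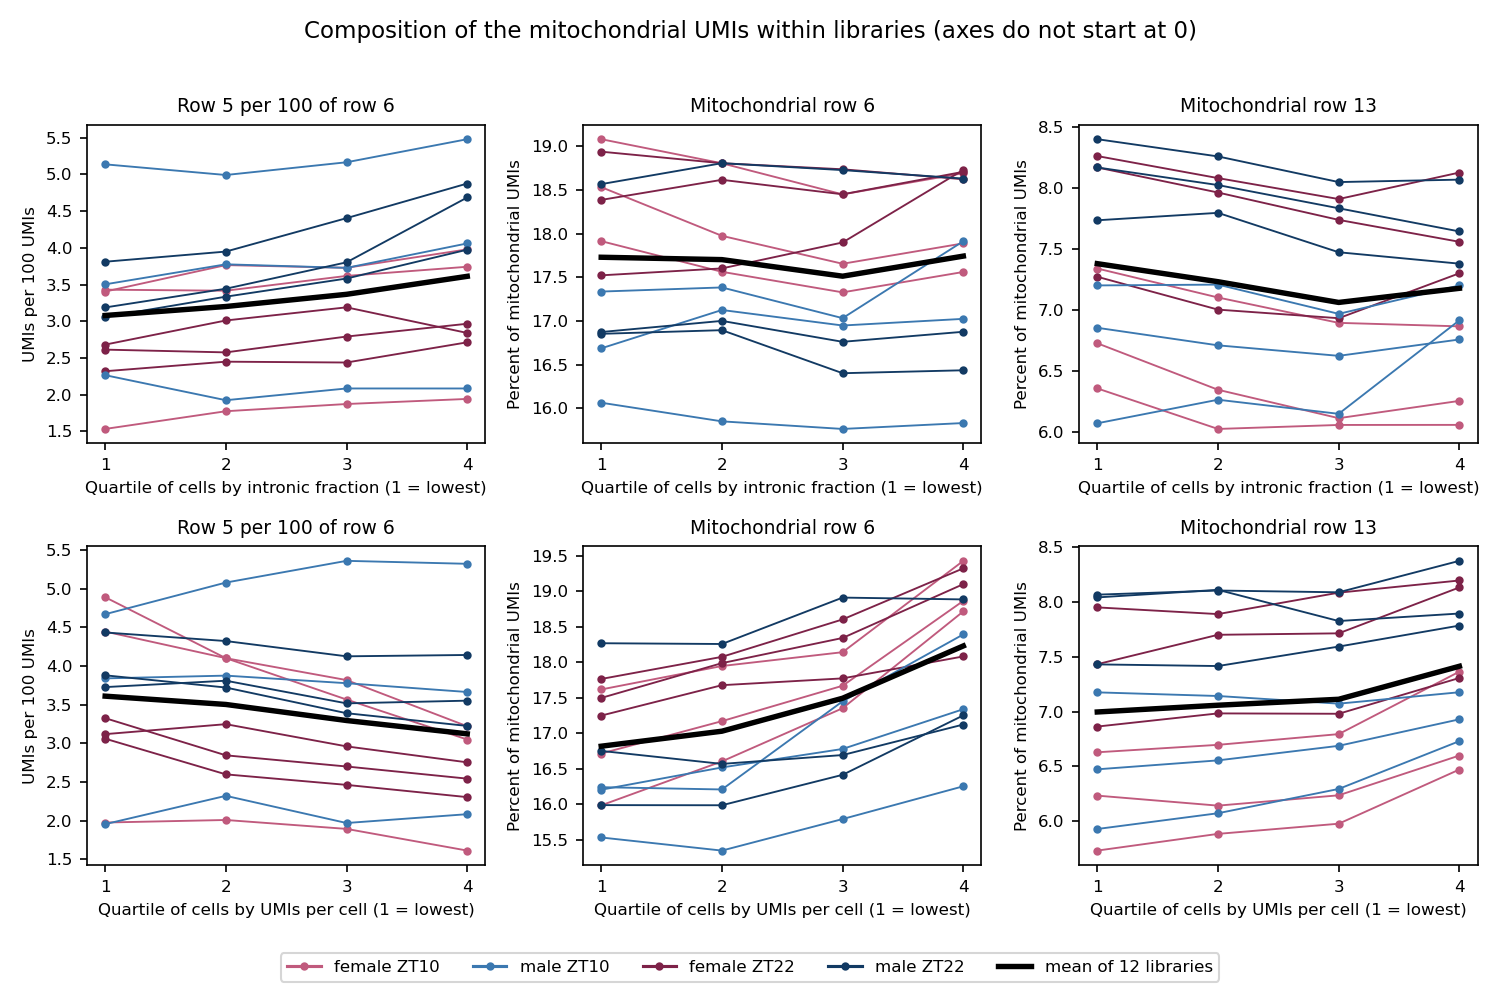
Composition of the mitochondrial UMIs over quartiles of each library's cells by intronic fraction and by total UMIs, with thin lines for the 12 libraries and thick lines for their mean. Row 5 per 100 UMIs of row 6 rises from a mean of 3.08 to 3.61 over the intronic quartiles and falls from 3.61 to 3.12 over the depth quartiles, within a wider spread between libraries.

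The level of the 3 rows relative to all UMIs was also higher in the deeper cells, but this turned with the way depth was counted. Log2 fold changes between the outer depth quartiles were 0.47 (SE 0.13, edgeR adjusted p = 0.0562) for row 5, 0.68 (SE 0.18, adjusted p = 0.0452) for row 6 and 0.65 (SE 0.16, adjusted p = 0.0320) for row 13. Higher calls thus fell on 2 of the 3 rows and on 3 of the other 10 mitochondrial rows, against 0.355% of the 8168 tested rows called higher and 0.906% called lower. A cell's mitochondrial UMIs are part of its total, and the mitochondrial share of all UMIs was 11.8, 12.6, 14.8 and 16.3% over the 4 quartiles. With mitochondrial UMIs left out of the depth the values were -0.25, -0.08 and -0.11 (edgeR adjusted p = 0.393, 0.881 and 0.807); none of the 3 was higher in the deeper cells. The calls were also lost when single libraries were left out, for row 6 without female ZT10 replicate 2 or 3, any female ZT22 library, male ZT10 replicate 3, or male ZT22 replicate 1 or 3, and for row 13 without any of these except female ZT22 replicate 3.

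Across the 12 libraries no relation of these shares to the library's median intronic fraction or median UMIs per cell passed after adjustment over 8 relations. The strongest was between the share of row 5 in the mitochondrial UMIs and the median UMIs per cell (Pearson r = -0.577, permutation p = 0.049, adjusted p = 0.384, Spearman rho = -0.587), with r = -0.387 without the 2 farthest libraries. The 4 values of r with the intronic fraction changed sign without the 2 farthest libraries, male ZT22 replicate 2 and male ZT10 replicate 2, for example from 0.304 to -0.0706 for row 5. The relation seen among cells within libraries did not pass the test between libraries.

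Clusters of cells, formed without the 13 mitochondrial rows, differed in the level of row 6 far more than in its share of the mitochondrial UMIs. Row 6 took 3.60 ± 0.75, 1.19 ± 0.55, 2.38 ± 0.51 and 2.53 ± 0.64% of all UMIs in main clusters 1 to 4 (SD, n = 12 libraries). Cluster 1 was above cluster 2 in all 12 libraries. The same clusters gave it 17.9, 18.4, 17.0 and 16.8% of the mitochondrial UMIs, and cluster 2, the lowest in level, was above clusters 3 and 4 in share in all 12 libraries. In clusters 5 and 6, which were set apart from the main population, it took 1.87 ± 0.67 and 1.15 ± 0.62% of all UMIs and 18.3 and 18.7% of the mitochondrial UMIs. Row 13 took 7.28, 7.62, 6.92, 7.08, 7.33 and 7.38% of the mitochondrial UMIs in clusters 1 to 6. Over the same clusters the mitochondrial rows together held 20.004, 6.46, 13.9, 15.003, 10.2 and 6.20% of all UMIs. These are descriptions with no test. Cluster 7, 98.7% of whose 78 cells came from male ZT10 replicate 2, is left out of them.

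The libraries with the highest and lowest ratio of row 5 to row 6 were largely the same in different clusters, while others changed places. Means over libraries lay between 3.14 and 3.61 per 100 UMIs in clusters 1 to 6, with SDs between libraries from 0.80 to 1.39. Male ZT10 replicate 1 was the highest library in all 6 clusters (4.74 to 5.57). Male ZT10 replicate 2 was among the lowest 2 in all 6 (1.49 to 2.63), and female ZT10 replicate 2 in 5 of 6, with 1.56 to 2.19 over all 6. No intervals were computed by cluster, and some values rest on few UMIs of row 5. Male ZT10 replicate 2 had 23 and 31 cells in clusters 5 and 6. In cluster 6, row 5 was 0.0111% of the 324090 UMIs of female ZT10 replicate 1. Female ZT10 replicate 1 ran from 1.76 in cluster 6, where it was among the lowest 2, to 4.35 in cluster 4, and male ZT22 replicate 3 from 3.17 in cluster 4 to 4.98 in cluster 2. Within a cluster the libraries spread more widely than the cluster means did, but those means are averages over libraries and vary less than single values. Single libraries also differed between clusters, as these last ranges show. The spread between libraries was present both in the main population and in the clusters set apart. Cells of 1 library share its preparation and sequencing, whose part in the ratio was not tested.

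**Figure D4:**
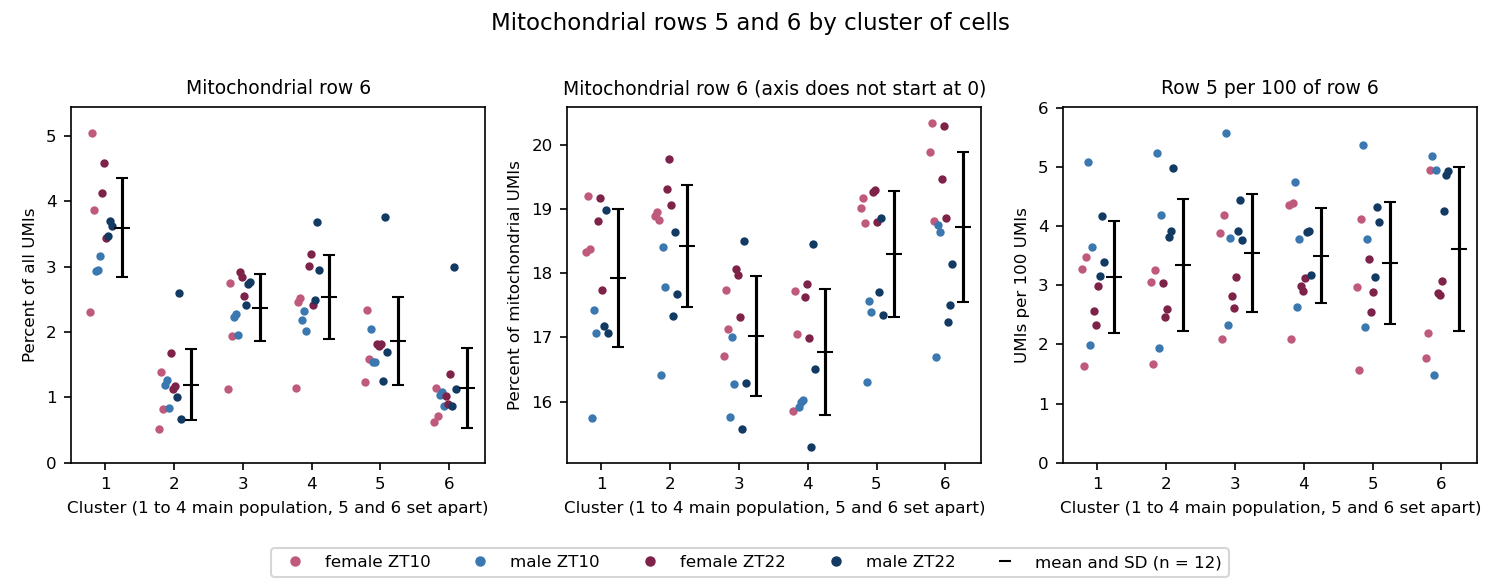
Row 6 as a share of all UMIs and of mitochondrial UMIs, and row 5 per 100 UMIs of row 6, in clusters 1 to 6, with 1 point per library and bars for the mean and SD (n = 12). The level spans means of 1.15 to 3.60% while the share of mitochondrial UMIs spans 16.8 to 18.7%, and male ZT10 replicate 1 tops the ratio in every cluster.

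Across the 12 libraries, the rows whose level was most like row 6 and row 13 were other mitochondrial rows, which was less so for row 5. By Pearson's r of log2(CPM + 1) over 11600 other rows, row 6 was nearest to row 4 (r = 0.995), and its nearest row outside the mitochondrial rows was table row 7101 (r = 0.927). Row 13 was nearest to row 10 (r = 0.987), with table row 7101 again the nearest outside (r = 0.952). Row 5 was nearest to row 9 (r = 0.903) and then to the non-mitochondrial table row 8368 (r = 0.856), and stood at r = 0.618 with row 6 and 0.712 with row 13, which had r = 0.974 with each other. These r values are descriptions over libraries that share depth and the total mitochondrial share.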

How the data were processed

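The authors deposited whole-number UMI counts per cell and a cell table with total counts, detected features, percent mitochondrial and an intronic fraction, per the file headers. Cell Ranger 6.1.2, Seurat and mm10 are named in the submitters' processing notes, while the counting of introns and of overlapping genes is not given in the sources used here. The deposited cells had at least 501 features and at most 39.99% mitochondrial counts, tested on the files. Libraries were assigned through the cell names and the labels.

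Counts were scaled to 10000 per cell, and cells clustered (scanpy 1.11.5, 2000 variable features, 8 components, 15 neighbours, Leiden resolution 0.3) without the mitochondrial rows. Clusters whose 10 leading features had a median fold above 8 were set apart (4364 cells); no doublet caller was run. Counts were summed per library and tested with edgeR 4.0.16 (TMM, filterByExpr, quasi-likelihood, Benjamini-Hochberg over all tested rows, threshold 0.05), with DESeq2 1.42.0 as an alternative. Within libraries, outer quartiles of cells were compared with the library as a block. Shares of mitochondrial counts and the log2 ratio of row 5 to row 6 were tested by exact permutation over 924 assignments of the libraries to 6 and 6 or 4096 sign patterns, each family adjusted over 8 tests. In simulated counts for the time contrast (9952 features), edgeR recovered 97% of 2-fold and 100% of 4-fold changes, with 12 false calls. These percentages describe the simulated features only. Recovery was not computed for the mitochondrial rows described here, whose log2 fold changes by time had SEs of 0.25 to 0.30. The simulation therefore does not show how large a change in those rows would have been called.

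The 3 rows and the comparison with the other 10 mitochondrial rows were chosen with earlier results of these data known. Other rows are given by number where they neighbour a member in level or pattern, or where a count of 5 or fewer names them. Lists of nuclear ATP synthase genes, complex III genes and cell type markers were not run, since no row could be matched to a name. Alternatives covered all deposited cells, cell filters, a split at the median, scaling, low-count filter, replicate and cell-name code blocks and leaving out each library.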

Additional observations from a re-analysis of the deposited data

How the results depend on the processing

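Of 294 edgeR values under alternatives 257 kept their direction and side of the threshold, as did 250 of 284 composition values and 11 of 16 correlations. Row 5's share by time, near 0, turned negative over all deposited cells (-0.00167), over cells with an intronic fraction under 0.3 (-0.0113) and as a share outside row 3, chosen after seeing the data (-0.0175). The cause was not tested for these or for the other changes. Over cells with an intronic fraction under 0.3 row 6's share by sex passed the threshold (1.23). By depth, row 5's share passed over all deposited cells (-0.0672) and outside row 3 (-0.0784). By intronic fraction, row 6's share turned with a split at the median (-0.106), within depth quartiles (-0.0822) and outside row 3 (-0.262, which also passed), and row 13's passed in the same 3 settings (-0.186, -0.240 and -0.370).

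The edgeR depth contrast of row 5 passed over all deposited cells (0.75), with a split at the median (0.37) and within intron quartiles (0.50), and turned within quartiles of mitochondrial percent (-0.0533) and with depth counted without mitochondrial UMIs (-0.25). Row 6 gave 0.12 and -0.082 in these last 2 settings and row 13 0.0802 and -0.11, none of them called. Without TMM the median of all tested rows moved to -0.12 (sex), -0.11 (time), -0.18 (interaction), 0.44 (intron) and -0.12 (depth), and the interaction turned to -0.0762 for row 5 and -0.0242 for row 6. Without the 2 farthest libraries, r with the intronic fraction went from 0.304 to -0.0706 for row 5, from 0.262 to -0.124, from 0.129 to -0.280 and from 0.145 to -0.155 for the others, and r of row 6 with UMIs per cell from -0.249 to 0.00167.

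Deviations of same-numbered libraries correlated at 0.205, 0.210 and 0.410 between the sexes at ZT10 (7139 rows), at 0.173, -0.0170 and 0.0182 between the sexes at ZT22, at -0.0160, 0.0478 and -0.203 between times in females and at -0.162, 0.5001 and 0.541 between times in males. Not every pair was above 0.1, so the numbers were not taken to pair the samples. With the replicate block, row 13's share by time was 1.17 (exact p = 0.0312, the smallest 6 pairs allow, adjusted p = 0.0833) and no longer passed, and row 6's by sex was 1.17 and the log2 ratio of row 5 to row 6 by sex -0.37, with the same p values.

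Leaving out each library in turn, edgeR log2 fold changes ranged from 0.42 to 0.54, 0.62 to 0.80 and 0.58 to 0.76 by depth for rows 5, 6 and 13, from -0.16 to 0.45, -0.18 to 0.58 and -0.16 to 0.66 for the interaction, and from -0.0927 to 0.30 by sex for row 13. Shares ranged from -0.0467 to 0.0524 by time and -0.0589 to -0.0271 by depth for row 5, from 0.930 to 1.49 by sex and -0.0955 to 0.0729 by intronic fraction for row 6, and from 1.06 to 1.31 by time and -0.297 to -0.165 by intronic fraction for row 13. The log2 ratio of row 5 to row 6 by time ranged from -0.14 to 0.17. Depth limits row 5 most, with 784 UMIs in male ZT10 replicate 2 and 3912 to 14228 in the other libraries.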
